A study of Mus musculus with 14 samples.

Results

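The comparison described here asked where bipotent osteo-adipogenic clones of mouse bone marrow stromal cells stood between clones restricted to bone and clones restricted to fat. For every gene, the mean log2 CPM (each gene's counts scaled to the library's effective total) of the osteo-adipogenic libraries was set against the midpoint, the average of the mean log2 CPM of the osteogenic and adipogenic libraries. The comparison used 9 of the 14 libraries of the series: 3 libraries of osteo-adipogenic clones (OA), 3 of osteogenic clones (O) and 3 of adipogenic clones (A). OA1 and OA2, O1 and O2, and A1 and A2 were single clones from different mice, whereas OA3, O3 and A3 were pools of several other clones from those 2 mice. Cells of every group were flushed out of femora and tibiae, and the donors were adult C57Bl/6 mice with the irtTA-GBD*-TAg transgene, which drives large T antigen when dexamethasone and doxycycline are present. All groups had therefore been conditionally immortalised, had been typed by differentiation assays after cloning, and were collected for RNA 3 days after both inducers were removed. Potency had been scored in separate assays, so the group names describe what the clones could become and not what they were when sampled.

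Bone marrow stromal cells contain skeletal progenitors that give rise to osteoblasts and to marrow adipocytes. Runx2 and Sp7 (osterix) are transcription factors required for osteoblast formation, and they act on matrix genes such as Ibsp and Bglap. Pparg and Cebpa drive adipocyte differentiation and act on lipid genes such as Lpl, Plin4 and Fabp4. Stromal cells with adipogenic features are also a major source of Cxcl12, the chemokine that retains hematopoietic stem cells in the marrow.

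Total counts of the 9 libraries ranged from 17846135 to 25649789, and 13896 genes reached 1 CPM in at least 3 of the 14 libraries. Of 18 stromal surface markers 16 were tested, with a summed level between 1650 and 2487 CPM in OA, between 1465 and 1761 CPM in O and between 1799 and 2287 CPM in A. The receptor gene Pdgfrb was at 562, 1049 and 502 CPM in OA1 to OA3, 297, 369.9 and 336 CPM in O1 to O3 and 583, 651 and 443 CPM in A1 to A3, whereas the stromal markers Thy1 and Ngfr did not reach the expression filter. The pan-leukocyte gene Ptprc and the endothelial genes Pecam1 and Cdh5 did not reach it either. Other markers of those cell types did reach the filter, among them Lyz2, Cd68 and Cd14 for blood cells and Kdr, Vwf and Ramp2 for endothelium. Within their groups, OA2 and O1 were unlike the other 2 libraries. In OA2 the median log2 deviation from the mean of all libraries was -2.45 among the 10% of genes with the lowest GC content, and in O1 it was -1.63, whereas it lay between 0.09 and 0.84 in the other 7 libraries. The median standard deviation of log2 CPM over 3 libraries was 0.51 for OA, 0.56 for O and 0.28 for A. The libraries of a group were different clones or pools from 2 mice, so the p-values measure the spread between clones and pools, not between animals.

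The promoters of 2 bone matrix genes are shown because both genes separated O from A, and in the OA mean Ibsp was at the level of O and Bglap between O and A. The windows come from RefSeq (GRCm38.p6) and run from 250 bases before the annotated start to 50 bases after it, 5′ to 3′ on the strand of the gene. Capitals mark matches, on either strand, to the TATA box letters TATAAA, the Runx letters TGTGGT and the CCAAT box letters CCAAT.
Ibsp, chr5:104299037-104299336, plus strand: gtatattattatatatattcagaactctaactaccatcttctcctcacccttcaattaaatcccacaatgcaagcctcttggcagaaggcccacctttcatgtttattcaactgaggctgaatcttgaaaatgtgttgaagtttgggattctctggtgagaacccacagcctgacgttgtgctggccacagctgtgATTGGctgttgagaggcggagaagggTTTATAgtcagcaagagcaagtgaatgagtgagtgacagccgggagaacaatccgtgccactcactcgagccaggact
Bglap, chr3:88384417-88384716, minus strand: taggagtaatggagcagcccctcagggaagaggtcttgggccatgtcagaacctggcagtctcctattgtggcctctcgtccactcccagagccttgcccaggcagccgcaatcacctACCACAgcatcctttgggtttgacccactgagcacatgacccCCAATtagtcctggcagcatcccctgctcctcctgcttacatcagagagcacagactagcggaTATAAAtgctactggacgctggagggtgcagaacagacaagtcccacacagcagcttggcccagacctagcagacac
The Bglap window held 1 match to each of the 3 motifs, with the Runx letters starting 132 bases before the start on the reverse strand. The Ibsp window held the TATA box and CCAAT letters, both on the reverse strand, 28 and 54 bases before the start, and no Runx letters. Among all 32851 RefSeq promoter windows of this length, 13.6% held TATAAA, 16.8% TGTGGT and 37.4% CCAAT, and no motif overlapped another in the windows shown. A homeodomain core, TAATTA, was also searched and was in neither window, against 5.29% of all windows. A match is a description of the letters, not of binding.

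Most genes in OA clones lay close to the midpoint, and most differed little between O and A. The absolute difference between OA and the midpoint was under 1 on the log2 CPM scale for 90.9% of the 13896 genes, with a median of 0.278, and it reached at least 2 for 105 genes. For comparison, the median absolute difference between O and A was 0.314. The midpoint is equally far from O and from A, so their own median distance from it was smaller than that of OA. The midpoint was built from the O and A libraries and not from OA, so that order can arise with no difference between groups. All 3 OA libraries were above the midpoint at 1751 genes and all 3 were below it at 1568, while at 10577 genes they fell on both sides. Fewer cells of a type and less RNA per cell cannot be told apart in these bulk libraries, so that a level at the midpoint is that of the culture and not of each cell.

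No gene differed from the midpoint by the edgeR quasi-likelihood test at a Benjamini-Hochberg FDR of 0.05 (0% of genes higher and 0% lower), and 545 genes had an unadjusted p under 0.05. limma called 0 genes on log2 CPM. DESeq2 called 15 genes, 8 higher in OA (0.0588% of the 13605 genes with an adjusted p) and 7 lower (0.0515%). The 10 of them that met the rule for named genes are described first, with log2 CPM differences from the midpoint, 95% intervals from limma and adjusted p-values from DESeq2. Here and below the intervals are those of single genes, not adjusted for the number of genes tested. The edgeR FDR was 0.222 for Pitx1 and 0.992 for each of the other 9.

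**Figure D1:**
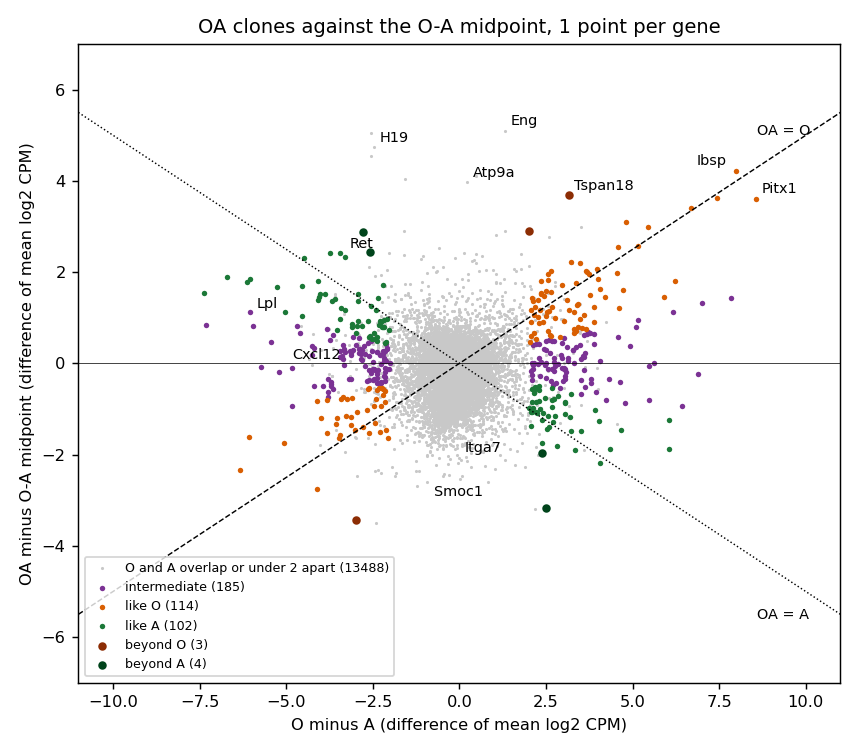
Each point is 1 of 13896 genes; the x axis is the mean log2 CPM of O minus that of A, and the y axis is the mean log2 CPM of OA minus the O-A midpoint. On the dashed line OA equals O and on the dotted line OA equals A; colours give the bands of position described in the text, with their gene counts, and 105 genes lie at least 2 from the midpoint.

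Eng stood furthest above the midpoint among these genes. It encodes endoglin, a TGF-beta co-receptor used as a surface marker of stromal progenitors, and it was at 88.6, 193 and 103 CPM in OA1, OA2 and OA3, against 2.99, 1.99 and 27.2 CPM in O1 to O3 and 2.39, 1.82 and 2.25 CPM in A1 to A3. Every OA library was above every O and A library, and the O3 pool was the highest of those 6. The difference from the midpoint was 5.10 (95% interval 2.88 to 7.33, n = 3 libraries per group; DESeq2 adjusted p = 0.00014).

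Atp9a and Tspan18 showed the same order of groups. Atp9a encodes a phospholipid-flippase family protein of endosomes, and its levels were 25.2, 46.7 and 10.9 CPM in OA1 to OA3, 0.509, 1.87 and 3.64 CPM in O1 to O3 and 1.32, 0.77 and 2.14 CPM in A1 to A3. Its OA libraries lay above all others, by 3.97 from the midpoint (95% interval 2.24 to 5.70, DESeq2 adjusted p = 0.000201). The call was lost without OA2 (adjusted p = 0.0623).
Tspan18, a tetraspanin, reached 109.9, 169 and 57.7 CPM in OA1 to OA3, with 5.6, 55.7 and 42.2 CPM in O1 to O3 and 2.34, 4.58 and 1.6 CPM in A1 to A3. OA was above both groups, but OA3 exceeded O2 by little, and O1 was close to the A libraries. The difference from the midpoint was 3.68 (95% interval 1.98 to 5.39, DESeq2 adjusted p = 0.00106, and 0.0998 without OA2). On a scale with 0 at the mean of A and 1 at the mean of O it stood at 1.67, and at 1.26 without O1. A second Ensembl gene with the symbol Tspan18 is in the table, and reads shared between them cannot be told apart.

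At Pitx1 and Fmod, OA stood at the level of O, far above A. Pitx1, a homeodomain factor of hindlimb identity, was at 45.8, 35.8 and 15.7 CPM in OA1 to OA3, against 106, 40.4 and 24.5 CPM in O1 to O3 and 0.0822, 0.0405 and 0 CPM in A1 to A3. In A it was all but undetected, with 2, 1 and 0 reads, and the midpoint then depends on the prior count of 2 used for log2 CPM. The OA and O libraries overlapped, and OA was 3.61 above the midpoint (95% interval 2.53 to 4.69, DESeq2 adjusted p = 6.74e-07).
Fmod encodes fibromodulin, a leucine-rich proteoglycan of collagenous matrix. Its levels were 457, 287 and 334 CPM in OA1 to OA3, 154, 456 and 523 CPM in O1 to O3 and 34.7, 13.6 and 19.4 CPM in A1 to A3. OA lay within the range of O and above every A library, 2.08 from the midpoint (95% interval 1.15 to 3.0, DESeq2 adjusted p = 0.00469). Without OA1 the adjusted p was 0.241.

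Ret was the opposite case, with OA at or above the level of A. The gene encodes the receptor tyrosine kinase for ligands of the GDNF family. It was at 42.2, 339 and 42.9 CPM in OA1 to OA3, 2.42, 4.55 and 9.56 CPM in O1 to O3 and 53.9, 70.2 and 37.9 CPM in A1 to A3. OA1 and OA3 were among the A libraries and OA2 was far above them all. Its difference from the midpoint was 2.42 (95% interval 0.84 to 4.0, DESeq2 adjusted p = 0.0226). Without OA2 the DESeq2 log2 difference was 1.3, against 3.07 with all libraries, and the adjusted p was 1. The call was also lost without A1 (adjusted p = 0.0648) or A3 (0.104), where the difference was 3.07 and 2.97.

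The 4 called and named genes below the midpoint were lower in OA than in both other groups. Smoc1 encodes a secreted calcium-binding protein that modulates BMP signalling, and it was at 2.46, 1.02 and 2.51 CPM in OA1 to OA3, 9.17, 9.01 and 7.09 CPM in O1 to O3 and 13.6, 9.73 and 31.9 CPM in A1 to A3. No OA library reached any O or A library, and the difference from the midpoint was -2.59 (95% interval -3.66 to -1.53, DESeq2 adjusted p = 0.000519).
Itga7, a laminin-binding integrin subunit, had 4.66, 9.65 and 7.13 CPM in OA1 to OA3, against 25.8, 22.9 and 15.3 CPM in O1 to O3 and 20.2, 19.1 and 26.5 CPM in A1 to A3. O and A overlapped each other, and OA was below both, with a log2 difference of -1.62 from the midpoint (95% interval -2.32 to -0.93, DESeq2 adjusted p = 0.00507). The call was lost without OA1 (adjusted p = 0.205) and without A3 (0.053).
Fgd6, an exchange factor for Cdc42, had 12.4, 8.9 and 14.3 CPM in OA1 to OA3, 20.5, 18.4 and 22.1 CPM in O1 to O3 and 20.6, 17.6 and 22.5 CPM in A1 to A3. O and A were at one level and OA was lower, with a difference of -0.79 from the midpoint (95% interval -1.23 to -0.35, DESeq2 adjusted p = 0.0287). That call remained in 3 of the 9 fits that each left out 1 library, and the adjusted p was 0.266 without OA1, 0.293 without OA2, 0.075 without O1, 0.13 without O3, 0.0983 without A1 and 0.162 without A3.
Zwint, a kinetochore protein, had 90.5, 86.5 and 104 CPM in OA1 to OA3, 129, 133 and 139 CPM in O1 to O3 and 145, 181 and 179.8 CPM in A1 to A3. The groups did not overlap, and the difference was -0.68 (95% interval -0.98 to -0.38, DESeq2 adjusted p = 0.00014). Zwint transcripts have a GC content of 42.6%, and once each library was corrected for its trend on GC content the edgeR log2 difference was -0.10, against -0.68 without the correction. Plekhn1 followed in the order of the rule but did not pass (difference -1.44, 95% interval -2.25 to -0.62, DESeq2 adjusted p = 0.0977).

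Eng, Pitx1, Smoc1 and Zwint kept their DESeq2 call in all 9 fits that left out 1 library. With OA2 and O1 left out together the adjusted p was 0.0567 for Smoc1, 0.0812 for Zwint, 0.601 for Fgd6 and 1 for Ret, so that these 4 calls were lost, and the other 6 named genes still passed. The other 5 called genes were named after their values were seen. By DESeq2, Cspg4 and 2410002F23Rik were above the midpoint, and Map3k13, Cldn1 and Nlrc3 were below it. Of the 9 fits that left out 1 library, the call remained in 4 for Map3k13, in 2 each for Cldn1 and Nlrc3 and in 1 for 2410002F23Rik. Cspg4, the NG2 proteoglycan of pericytes, was at 10.4, 1.39 and 3.68 CPM in OA1 to OA3, 1.08, 0.731 and 0.45 CPM in O1 to O3 and 0.452, 0.203 and 0.267 CPM in A1 to A3. It was low throughout, and its call remained in 4 of the 9 fits. It was lost without OA1 (adjusted p = 0.731), O3 (0.13), A1 (0.0632), A2 (0.115) or A3 (0.162).

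**Figure D2:**
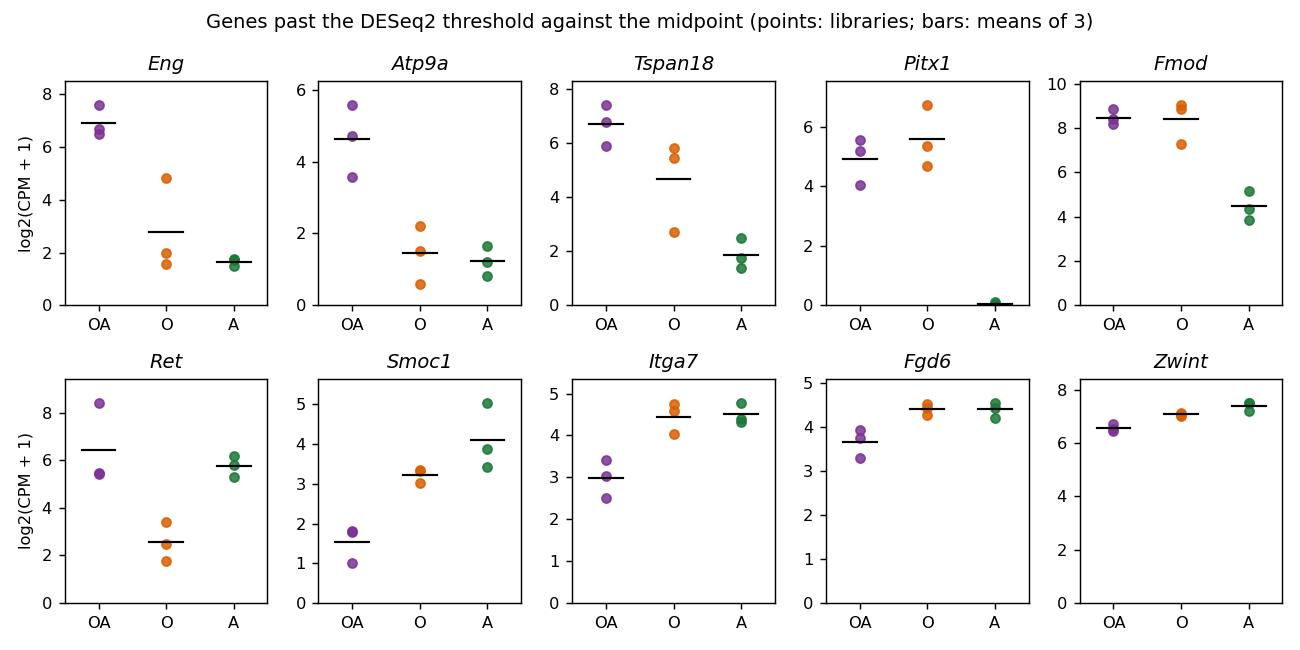
Levels of the 10 named genes past the DESeq2 threshold, as log2(CPM + 1), with each library a point and the mean of 3 libraries a bar. Eng, Atp9a and Tspan18 are above both other groups in all 3 OA libraries, Pitx1 and Fmod overlap O, Ret overlaps A, and the genes of the lower row from Smoc1 on are below both.

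Genes outside the ranges of both O and A were counted without a threshold on p. All 3 OA libraries were above all 6 O and A libraries at 105 genes (0.756% of the genes tested) and below all 6 at 83 genes (0.597%). Some genes take such an order with no difference between groups, and the counts were not set against that share, so they do not show a difference. The median difference from the midpoint was 0.527 among the 105 genes and -0.775 among the 83. Median GC content was 53.1% among the 105, 49.9% among the 83 and 49.9% over all genes tested. After the GC correction 49 of the 105 and 51 of the 83 were still outside. With OA2 and O1 left out of the fit the counts were 369 above and 342 below, and fewer libraries make such an order easier by construction. The part of GC content in these counts was not tested.

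Col15a1 and H19 were among the genes furthest above both groups. Col15a1, a basement membrane collagen, was at 141, 232 and 235 CPM in OA1 to OA3, 2.29, 42.2 and 10.5 CPM in O1 to O3 and 90.2, 54.9 and 70 CPM in A1 to A3. O was lowest, A was between, and OA was highest, 2.88 above the midpoint (95% interval 1.28 to 4.48, DESeq2 adjusted p = 0.0901).
H19, an imprinted growth-restraining RNA, was at 5.66, 66.3 and 8.39 CPM in OA1 to OA3, 0, 0 and 1.61 CPM in O1 to O3 and 2.14, 2.39 and 0.305 CPM in A1 to A3. OA2 was far above OA1 and OA3, and O1 and O2 had 0 reads. The DESeq2 adjusted p was 0.0741.
Ckb and Gpr30 were even over the OA libraries. Ckb, brain-type creatine kinase, was at 52.6, 53.5 and 52.9 CPM in OA1 to OA3, 16.8, 13.6 and 14.4 CPM in O1 to O3 and 35.4, 38 and 21.2 CPM in A1 to A3. Gpr30, a membrane estrogen receptor also known as Gper1, was at 23.3, 21.9 and 19.9 CPM in OA1 to OA3, 1.46, 9.7 and 9.04 CPM in O1 to O3 and 3.58, 13.6 and 1.22 CPM in A1 to A3. The OA values of both genes differed little from one another and exceeded all others, yet the DESeq2 adjusted p was 0.318 for Ckb and 0.543 for Gpr30. Zhx2, a transcriptional repressor, and Sorcs2, a sorting receptor, completed the widest gaps above, with log2 differences of 0.95 (95% interval 0.17 to 1.73) and 2.05 (95% interval 0.92 to 3.18). Their DESeq2 adjusted p-values were 0.575 and 0.0794.

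Below both groups, Dusp6 and Sorl1 had wide gaps. Dusp6, the ERK phosphatase induced by FGF and ERK signalling, was at 9.97, 8.42 and 8.03 CPM in OA1 to OA3, 21.5, 14.2 and 21.4 CPM in O1 to O3 and 23.6, 14 and 27.4 CPM in A1 to A3. Sorl1, a sorting receptor of the LDL receptor family, was at 13.8, 5.79 and 13.2 CPM in OA1 to OA3, 33.9, 36.9 and 40.2 CPM in O1 to O3 and 23.4, 19.9 and 25 CPM in A1 to A3. The highest OA library stayed under the lowest O or A library for both genes, by a wider margin for Sorl1 in O than in A. Their differences from the midpoint were -1.16 (95% interval -1.88 to -0.45) and -1.50 (95% interval -2.51 to -0.49), with DESeq2 adjusted p-values of 0.186 and 0.36. Synpo2, an actin-binding protein, and Sp6, a transcription factor of the family of Sp7, also lay below, at 1.35, 3.11 and 4.17 and 2, 3.06 and 3.36 CPM in OA1 to OA3.

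To place OA between O and A, genes that separated O from A were placed on an axis. A gene was on the axis if its 3 O and 3 A libraries did not overlap and their means were at least 2 apart in log2 CPM, which held for 408 genes (2.94% of those tested), 215 higher in O and 193 higher in A. The position of OA was (OA - A)/(O - A), which is 0 at the mean of A, 1 at the mean of O and 0.5 at the midpoint. Positions from 0.3 to 0.7 were called intermediate, from 0.7 to 1.3 like O, from -0.3 to 0.3 like A, and those past these limits beyond O or beyond A. Where libraries were left out, the positions of named genes were computed also if a gene no longer met the axis rule.

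OA was intermediate at 185 of the 408 axis genes (45.3%), like O at 114 (27.9%) and like A at 102 (25%). It was beyond A at 4 genes and beyond O at 3. Without OA2 and O1, 39.5% of the axis genes were like O. Of the genes higher in O, 74 (34.4%) were like O and 48 (22.3%) like A. Of the genes higher in A, 40 (20.7%) were like O and 54 (28.0%) like A. The median position of the OA mean was 0.503 over all axis genes, 0.563 over the genes higher in O and 0.435 over those higher in A. Axis genes were chosen for O and A lying far apart, and that choice alone can place another group near the middle. The part of that choice in these counts and medians was not tested.

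An intermediate mean did not mean 3 intermediate libraries. All 3 OA libraries fell in one band at only 37 of the 408 genes, of which 16 were like O, 10 intermediate and 9 like A. The median standard deviation of position over libraries was 0.389 for OA, against 0.335 for O and 0.264 for A. Axis genes were chosen with O and A not overlapping, which favours a small spread in O and A but not in OA. Over all genes tested the median standard deviation of log2 CPM was 0.51 for OA, 0.56 for O and 0.28 for A. The median position was 0.565 for OA1, 0.247 for OA2 and 0.660 for OA3. OA2 was the lowest of the 3 at 140 of the 215 genes higher in O and at 91 of the 193 genes higher in A. Among genes higher in O, the median position was 0.759 for OA1, 0.183 for OA2 and 0.807 for OA3. Among genes higher in A it was 0.452, 0.301 and 0.507. With the GC correction the medians over all axis genes were 0.582, 0.241 and 0.673, so that OA2 stayed nearest to A.

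Because the O and A libraries define the axis, each was also placed on an axis built without it. On those axes the medians of the libraries left out were 0.751 for O1, 0.835 for O2 and 0.548 for O3, and 0.152 for A1, 0.161 for A2 and 0.200 for A3. Each of the 6 lay nearer the middle than on the axis it helped to define. Over all genes of each axis every OA library had a lower median than the O library left out and a higher one than the A library left out, with OA3 and O1 nearest, at 0.736 and 0.751. That order did not hold within each direction. Among genes higher in O, OA1 and OA3 were at 0.688 and 0.834, above the O1 left out at 0.654, and OA2 was at 0.195, below the A3 left out at 0.328. Among genes higher in A, OA1 and OA3 were at 0.384 and 0.382, above the O3 left out at 0.367. The tripotent libraries, which were not used to build the axis, had medians of 0.292, 0.424 and 0.544, the osteo-chondrogenic pool had 0.957 and the adipo-chondrogenic pool 0.0826.

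**Figure D3:**
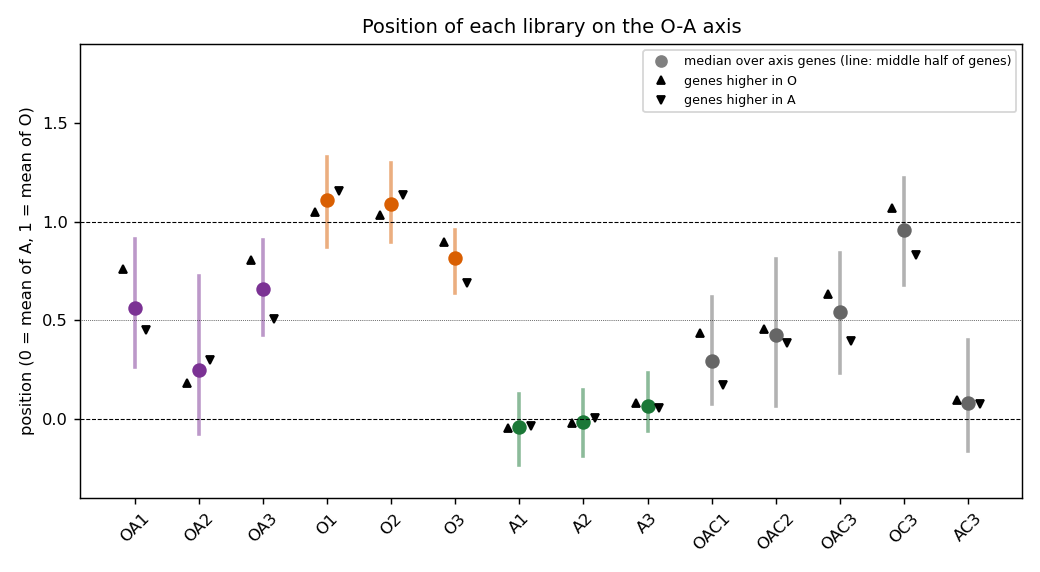
Median position of each library over the 408 axis genes, on a scale where 0 is the mean of A and 1 the mean of O, with the middle 50% of genes as a line; triangles give the medians over genes higher in O (upward) and higher in A (downward). OA1 and OA3 lie at 0.565 and 0.660 and OA2 at 0.247; the O and A libraries define the axis and so lie near its ends.

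Genes with all 3 OA libraries like O included transcription factors and growth-related genes as well as matrix genes. Nfatc4, a calcineurin-dependent transcription factor, was at 214, 94.2 and 77.4 CPM in OA1 to OA3, 118, 111 and 101 CPM in O1 to O3 and 16.5, 6.48 and 11.2 CPM in A1 to A3. Mest, an imprinted gene of the hydrolase fold, was at 136, 217 and 103 CPM in OA1 to OA3, 166, 166 and 210.4 CPM in O1 to O3 and 29.8, 1.62 and 8.55 CPM in A1 to A3. OA and O overlapped at both genes and all A libraries were lower, with positions of 1.02 and 0.932. Hoxc11, a posterior Hox gene, stood at 0.84, and Atp2a3, an endoplasmic reticulum calcium pump, at 0.894.

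Genes with all 3 OA libraries like A included some higher in O and some higher in A. Srpx, a sushi-repeat protein, was at 0.752, 0.214 and 0.807 CPM in OA1 to OA3, 15.4, 27 and 14.4 CPM in O1 to O3 and 0.699, 0.122 and 0.0382 CPM in A1 to A3. It was nearly silent in OA and in A and present in every O library (position 0.19). Hes1, the Notch target repressor, was higher in A, at 10.7, 24.6 and 16.9 CPM in OA1 to OA3, 0.0637, 8.56 and 9.68 CPM in O1 to O3 and 16.1, 16.2 and 20.9 CPM in A1 to A3. OA overlapped A and exceeded O at Hes1, and O1 was far below O2 and O3 (position 0.0327). Ebf3, a factor of niche stromal cells, stood at 0.125, Rgs16, a regulator of G-protein signalling, at 0.146, and Aim1 at 0.0189. Without O2, Ebf3 was at 0.303, just intermediate, and without A2, Aim1 was at -0.306, just beyond A. Hes1 was at 0.397, intermediate, with OA2 and O1 left out together.

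Cxcl12 was among the genes with all 3 OA libraries intermediate. It was at 1487, 1999 and 1643 CPM in OA1 to OA3, 643, 399.6 and 646 CPM in O1 to O3 and 4833, 5131 and 2413 CPM in A1 to A3. The 3 groups did not overlap, with OA above O and below A, and the positions of OA1 to OA3 were 0.493, 0.342 and 0.442. The difference from the midpoint was 0.21 (95% interval -0.45 to 0.87).
Kcnmb4, a potassium channel subunit, was at 10.6, 8.42 and 9.64 CPM in OA1 to OA3, 1.02, 1.38 and 3.86 CPM in O1 to O3 and 23.8, 23.7 and 25.9 CPM in A1 to A3. Igdcc4, an immunoglobulin-superfamily surface protein higher in O, was at 23.6, 26.1 and 30.4 CPM in OA1 to OA3, 116, 42.6 and 59.6 CPM in O1 to O3 and 4.77, 4.82 and 11.4 CPM in A1 to A3. Both were graded without overlap between groups, at positions 0.363 and 0.606. With the GC correction Kcnmb4 was at 0.269, in the band like A. Mark1, a microtubule affinity-regulating kinase, stood at 0.419 and Tmem37 at 0.392. Mark1 had 4 reads in O1, against 208 and 722 in O2 and O3, and without O1 it was at 0.891, in the band like O.

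Osteoblast transcription factors on the axis were at the level of O in the OA mean. Of the 12 on the list 11 were tested and 4 were on the axis, all higher in O and all like O: Sp7, Dlx3, Dlx5 and Pitx1, named after their values were seen. The median difference from the midpoint was 0.864 over the 11 tested, against -0.0545 over all genes. Sp7 was at 216, 13.5 and 193 CPM in OA1 to OA3, 22.3, 398 and 54.4 CPM in O1 to O3 and 0.617, 0.486 and 1.03 CPM in A1 to A3. OA2 and O1 were the lowest of their groups, every OA library exceeded every A library, and the position was 1.01. The difference from the midpoint was 3.41 (95% interval 0.60 to 6.22, DESeq2 adjusted p = 0.0855). Dlx5, a homeodomain factor of osteoblast differentiation, was even over the OA libraries, at 27.6, 22.4 and 29.7 CPM in OA1 to OA3, 12.7, 44.8 and 15.8 CPM in O1 to O3 and 5.02, 1.66 and 5.57 CPM in A1 to A3. Dlx3 was uneven and low, with 114, 8 and 271 reads in OA1 to OA3, 18, 196 and 35 in O1 to O3 and 3, 7 and 1 in A1 to A3. OA2 was thus near the level of A at Dlx3.
Runx2 itself was not on the axis. It was at 168, 56 and 121 CPM in OA1 to OA3, 76.8, 218 and 93.8 CPM in O1 to O3 and 86.5, 84 and 58.5 CPM in A1 to A3. All 3 groups overlapped, and the difference from the midpoint was 0.16 (95% interval -0.76 to 1.07).

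Bone matrix and mineralization genes varied between the OA libraries. Of 22 genes 21 were tested and 9 were on the axis, 8 of them higher in O. In the OA mean, 5 were like O (Col1a1, Ibsp, Alpl, Slc13a5 and Panx3) and 4 intermediate (Bglap, Bglap2, Spp1 and Tnn). None of the 21 passed the edgeR or the DESeq2 test against the midpoint. Col1a1, the main chain of type I collagen, was at 45178, 49113 and 27724 CPM in OA1 to OA3, 55571, 49156 and 33829 CPM in O1 to O3 and 9345, 4961 and 11243 CPM in A1 to A3. OA and O overlapped and A was lower throughout, with OA 1.05 above the midpoint (95% interval 0.34 to 1.76).
Ibsp, bone sialoprotein, whose promoter is shown above, was at 316, 1.02 and 1520.05 CPM in OA1 to OA3, 1.85, 817 and 209 CPM in O1 to O3 and 0, 0.648 and 0.229 CPM in A1 to A3. OA1 and OA3 were at the level of O2 and O3, while OA2 and O1 were near the level of A. The mean position of 1.03 thus averaged 1.27, 0.253 and 1.56 in OA1 to OA3, and the 95% interval of its difference from the midpoint was -1.35 to 9.79. Alpl, tissue-nonspecific alkaline phosphatase, the enzyme used to mark osteoblast commitment, was at 1112, 223 and 1438 CPM in OA1 to OA3, 159, 2692 and 502 CPM in O1 to O3 and 146, 70.1 and 45.6 CPM in A1 to A3. OA2 and O1 were again the lowest of their groups. Slc13a5, a citrate transporter, and Panx3, a channel of osteoblasts, had the same pattern, with positions of 1.25, 0.268 and 1.45 and 1.33, 0.179 and 1.63 in OA1 to OA3.
Bglap, osteocalcin, was at 1.35, 0.965 and 5.52 CPM in OA1 to OA3, 2.86, 14.7 and 2.36 CPM in O1 to O3 and 0.411, 0.324 and 0.114 CPM in A1 to A3. It was highest in O2 and low in the other cultures. Its position of 0.677 was just inside the limit of 0.7 for intermediate genes. Bglap2 is a near-identical neighbour, and reads could be split between them. Spp1, osteopontin, went the other way and was higher in A, at 519, 319 and 1241 CPM in OA1 to OA3, 162, 143 and 227 CPM in O1 to O3 and 955, 1233 and 914 CPM in A1 to A3. Every OA library exceeded O, OA1 and OA2 were below A, and OA3 was just above the highest A library, and the position of 0.311 was 0.132 with the GC correction, in the band like A. Spp1 also fell in that band without OA1 (0.275), OA2 (0.143), O3 (0.289) or A2 (0.273). Bglap was like O without OA1 (0.744), OA2 (0.797) or O2 (0.865). Ibsp was beyond O without OA2 (1.41) and without O2 (1.32), and so was Dlx3 (1.51 and 1.51). Alpl was beyond O without OA2 (1.35). Without O2 the position of Alpl was 1.71, but its O and A means were then under 2 apart, so that it left the axis.

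Adipogenic transcription factors on the axis were intermediate or like A. Of 15 genes 13 were tested and 4 were on the axis, all higher in A: Zfp423 and Ebf3 were like A, and Pparg and Nr1h3 intermediate. The median difference from the midpoint was 0.446 over the 13. Pparg, the master regulator of adipogenesis, was at 10.4, 27.3 and 15.9 CPM in OA1 to OA3, 6.11, 12.7 and 7.54 CPM in O1 to O3 and 34.4, 55.2 and 28.3 CPM in A1 to A3. OA2 was the highest of OA, all OA libraries were below all A libraries, and OA1 lay within the range of O. The difference from the midpoint was -0.11 (95% interval -0.99 to 0.77), and the positions of OA1 to OA3 were 0.859, 0.215 and 0.576. Without OA2 the mean position of Pparg was 0.729, in the band like O.
Zfp423, a preadipocyte determination factor, was at 12.1, 39.2 and 19.9 CPM in OA1 to OA3, 4.46, 1.14 and 4.73 CPM in O1 to O3 and 28.8, 7.05 and 12.6 CPM in A1 to A3. OA exceeded every O library and overlapped A, at a position of -0.284. This was near the limit of the band, and it was -0.695 without A1, -0.465 without OA1, -0.401 without O2 and -0.304 without OA3, all beyond A, and it was -0.0784 without OA2 and -0.0563 without A2. Cebpa was at 39.6, 95.2 and 31.6 CPM in OA1 to OA3, 35, 14.1 and 12.6 CPM in O1 to O3 and 90, 83.1 and 47.2 CPM in A1 to A3. OA overlapped both groups at Cebpa, with OA2 above every A library.

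Most of the lipid genes tested were not on the axis, which held 2.94% of all genes tested. Of 24 genes 17 were tested and 4 were on the axis: Plin4 was like A, and Lpl, Fabp5 and Angptl4 were intermediate. Lpl, lipoprotein lipase, was at 46.2, 41.3 and 56.1 CPM in OA1 to OA3, 4.84, 0.244 and 11.4 CPM in O1 to O3 and 196, 246 and 114 CPM in A1 to A3. The groups did not overlap, the OA libraries were close together, and the position was 0.313, or 0.243 with the GC correction. It was also under 0.3, in the band like A, without OA2 (0.299), O1 (0.291), O3 (0.266) or A2 (0.284). Plin4, a lipid droplet coat protein, was at 99, 427 and 186 CPM in OA1 to OA3, 5.73, 5.56 and 31.2 CPM in O1 to O3 and 542, 303 and 354 CPM in A1 to A3. All OA libraries exceeded O, and OA2 lay within the range of A, with OA 1.67 above the midpoint (95% interval 0.34 to 2.99). With OA2 and O1 left out Plin4 was at 0.310, just intermediate.
Fabp5, a fatty acid-binding protein, was the lipid gene on the axis that was higher in O, at a position of 0.619. Fabp4, the adipocyte fatty acid-binding protein, did not separate O from A, at 34.1, 4.5 and 35.6 CPM in OA1 to OA3, 59.6, 85.4 and 27.5 CPM in O1 to O3 and 38.2, 19.8 and 45.9 CPM in A1 to A3. The perilipin gene Plin1, a mark of mature adipocytes, was under the expression filter.

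**Figure D4:**
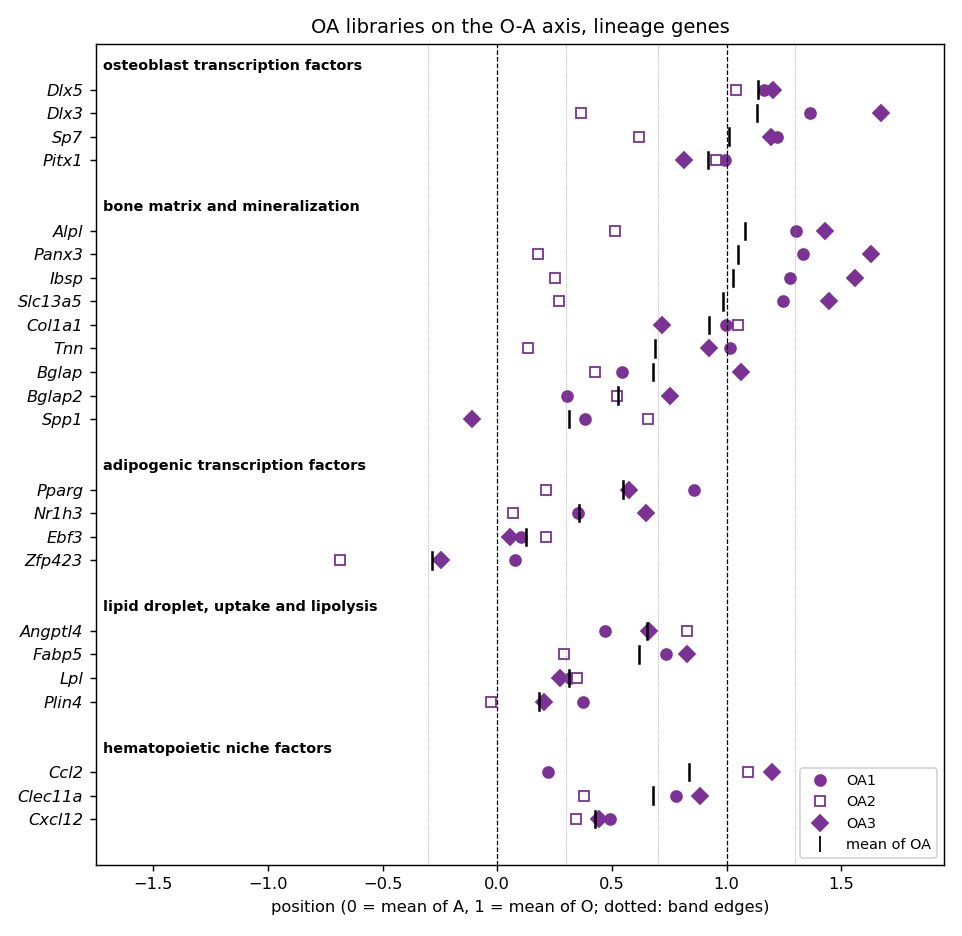
Positions of OA1 (circle), OA2 (open square) and OA3 (diamond) for the axis genes of 5 lineage lists, with the OA mean as a bar, 0 at the mean of A and 1 at the mean of O. OA2 is the lowest of the 3 at Sp7, Ibsp and Alpl, whereas the 3 libraries lie close together at Cxcl12 and Lpl.

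Hematopoietic niche factors on the axis fell in different bands. Of 16 genes 13 were tested and 3 were on the axis: Cxcl12 and Clec11a were intermediate and Ccl2 was like O. Clec11a, osteolectin, a growth factor for osteogenic cells, was at 35.6, 6.33 and 55.2 CPM in OA1 to OA3, 252, 27.4 and 109.7 CPM in O1 to O3 and 1.11, 1.58 and 0.916 CPM in A1 to A3. Every OA library exceeded A, and OA2 was below all O libraries. Clec11a was like O without OA2 (0.827) or O1 (0.773). The median difference from the midpoint was -0.285 over the 13 genes. Vcam1, the adhesion molecule of niche stroma, was at 41.2, 59.8 and 43.3 CPM in OA1 to OA3, 84.9, 66.4 and 58.4 CPM in O1 to O3 and 83.7, 73.1 and 92.8 CPM in A1 to A3. Its edgeR log2 difference was -0.66, and 0.44 with the GC correction, so that the direction turned.

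Stromal surface markers held 2 of the 8 DESeq2 calls above the midpoint among 16 tested genes, Eng and Cspg4, where 0.0588% of all genes were called, and the call of Cspg4 remained in 4 of the 9 fits. On the axis were Nt5e (CD73) and Cd200, both like O, and Grem1. Grem1, a secreted BMP antagonist, was one of the 3 genes beyond O. It was at 3.56, 0.643 and 1.75 CPM in OA1 to OA3, 8.72, 2.48 and 12.3 CPM in O1 to O3 and 45.3, 127 and 24.3 CPM in A1 to A3. A was far above both other groups, OA overlapped O at its low end, and the difference from the midpoint was -3.44 (95% interval -6.20 to -0.68, DESeq2 adjusted p = 0.249).

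Among signalling pathways, 6 of 23 tested Wnt pathway targets and antagonists were on the axis, 3 like A, 1 intermediate and 2 like O. Sfrp1, a secreted Wnt antagonist, was at 162, 134 and 50.3 CPM in OA1 to OA3, 0.127, 5.68 and 16.4 CPM in O1 to O3 and 854, 84 and 319 CPM in A1 to A3. OA exceeded every O library and overlapped A, at a position of 0.218. Ror2, a Wnt5a receptor, was like O (position 0.882), and Rspo2, a Wnt agonist higher in A, was like A (0.29). Of 11 Hedgehog genes 3 were on the axis, all higher in O, with Gli1 and Ihh like O and Boc intermediate. Ihh had few reads, with 25, 1 and 95 in OA1 to OA3, 4, 115 and 30 in O1 to O3 and 1, 1 and 2 in A1 to A3. OA2 and O1 were thus near the level of A at Ihh, and its position depends on the prior count. Gli1 and Ihh were intermediate without OA3 (0.687 and 0.518), and Ihh also without O1 (0.670). Of 26 tested BMP and TGF-beta genes 2 were on the axis, and none passed a test.

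Of 18 tested limb and positional factors 4 were on the axis, all higher in O, with Pitx1, Hoxc11 and Prrx2 like O and Tbx3 intermediate. Hoxa11, a gene of the limb zeugopod, was not on the axis. It was at 13.5, 33.4 and 33.5 CPM in OA1 to OA3, 0, 0.0812 and 1.91 CPM in O1 to O3 and 0.0411, 30.1 and 1.45 CPM in A1 to A3. All OA libraries were high, all O libraries were near 0 and A2 alone was high among A. The difference from the midpoint was 5.05 (95% interval 1.35 to 8.75, DESeq2 adjusted p = 0.673).

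All 3 OA libraries were above it at 12 of the 25 tested genes of fibrillar matrix and crosslinking and below it at 1, against 1751 and 1568 of 13896 genes in all. Col6a3, a type VI collagen chain, was above both groups, at 2881, 6099.9 and 2621 CPM in OA1 to OA3, 2199, 2599 and 1441 CPM in O1 to O3 and 1102, 1911 and 1215 CPM in A1 to A3. OA2 was highest, and the difference from the midpoint was 1.11 (95% interval 0.43 to 1.79, DESeq2 adjusted p = 0.195). Col3a1 was like O in position (1.16), at 2282, 5597 and 2155 CPM in OA1 to OA3, 6008, 809 and 2584 CPM in O1 to O3 and 676, 301 and 464 CPM in A1 to A3. Without O1 its position was 1.64, but its O and A means were then under 2 apart, so that it left the axis.

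Cell cycle genes were not on the axis, and p53 targets were not either. All 3 OA libraries were above the midpoint at 15 of 30 cell cycle genes and below it at none, where over all 13896 genes they were above at 1751 and below at 1568. Their summed level was between 2118 and 3779 CPM in OA, between 719.9 and 3247 CPM in O and between 2256 and 3190.05 CPM in A, and it was lowest in O1. The part of O1 in the count above was not tested. Plk1, a mitotic kinase, was at 71.3, 64.1 and 34.3 CPM in OA1 to OA3, 3.57, 29 and 23.4 CPM in O1 to O3 and 46.4, 20.7 and 36.8 CPM in A1 to A3. OA overlapped A, and O1 was far below the other 8 libraries. All 3 OA libraries were below the midpoint at 7 of 18 p53 targets and INK4 inhibitors and above it at none, beside the same counts over all genes. Mdm2, the p53 ubiquitin ligase and itself a p53 target, was at 149, 62.9 and 430.00 CPM in OA1 to OA3, 252, 469 and 641 CPM in O1 to O3 and 392, 467 and 778 CPM in A1 to A3. OA2 was lowest and OA3 overlapped both other groups (difference -1.56, 95% interval -2.74 to -0.38). No gene of either list passed a test.

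The summed level of blood cell markers was between 9.46 and 11.7 CPM in OA, between 11.7 and 65.6 CPM in O and between 15.5 and 24.4 CPM in A, with 4 of the 16 markers above the filter. All 3 OA libraries were below the midpoint at 3 of these 4 and above it at none, against 1568 and 1751 of 13896 genes in all. Lyz2 had 6, 26 and 35 reads in OA1 to OA3, 585, 62 and 223 in O1 to O3 and 6, 62 and 14 in A1 to A3. Lyz2 was on the axis, higher in O, with OA like A (position 0.0774). The summed level of endothelial markers was between 55.0 and 71.2 CPM in OA, between 56.4 and 87.8 CPM in O and between 56.4 and 65.6 CPM in A, most of it from Ramp2. Schwann and neural markers summed to between 26.2 and 97.4 CPM in OA, highest in OA3, between 37.4 and 47.1 CPM in O and between 9.21 and 26.2 CPM in A, with 4 of 12 above the filter. Most of the level in OA3 was Tubb3, a neuronal tubulin, at 20.1, 26.6 and 84.9 CPM in OA1 to OA3, 22, 26.4 and 25.6 CPM in O1 to O3 and 3.21, 19.7 and 4.92 CPM in A1 to A3, while the glial gene Gfap did not reach the filter. Skeletal muscle markers summed to between 31.0 and 77.0 CPM in OA, between 9.21 and 34.1 CPM in O and between 21.2 and 77.0 CPM in A, from Acta1 and Des, the 2 of 12 above the filter. The muscle regulators Myog and Pax7 did not reach it. The part of these markers in the results was not tested.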

How the data were processed

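Per the labels' protocols, mRNA was selected on oligo(dT) and made into strand-specific sequencing libraries. The authors deposited whole-number read counts per gene for 23331 mouse genes and 14 libraries. CASAVA 1.8.0, bedtools 2.11 and build mm9 are named in the submitters' processing notes. The sources used here do not give the aligner, read filters or strand setting, so genes that overlap, lie antisense or are nearly identical have uncertain counts, and 196 genes share a symbol.

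The 13896 genes that reached 1 CPM in 3 or more of the 14 libraries were tested. edgeR 4.0.16 (R 4.3.3) fitted 6 group means to the deposited counts with TMM factors and robust dispersions (8 residual degrees of freedom), and the contrast was OA minus the mean of O and A. DESeq2 1.42.0 and limma 3.58.1 were alternatives; 291 genes had no adjusted p from DESeq2. CPM and log2 CPM (prior count 2) were computed from the deposited counts. The contrast shares its O and A libraries with the comparisons of OA with O and with A.

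GC content came from GENCODE transcripts (96.5% of genes), and the correction removed each library's smooth trend (lowess span 0.3). Coordinates are those of RefSeq GRCm38.p6, not of mm9.

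Named genes were up to 12 per direction with the greatest difference among calls averaging at least 5 CPM with all 3 OA libraries on one side, 8 per direction with the widest gap outside both groups, 6 per band with the greatest O-A distance, 17 lineage genes, and up to 3 of each of 24 gene lists (428 genes, 413 in the table, 343 tested) by lowest edgeR p. As edgeR called no gene, DESeq2 calls filled the first part. Parts are printed from the top down, not in full, and other list members were named after their values were seen. The comparison, lists and rules were chosen with earlier results of these data known.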

Additional observations from a re-analysis of the deposited data

How the results depend on the processing

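The median position of OA was 0.503 in the main fit and 0.421 to 0.648 under the 14 alternatives. All were within 1 standard deviation of the OA libraries, a limit that leaving out 1 OA library could hardly pass. Among 378 recomputed log2 differences of the genes named for a call or a gap outside both groups none changed sign. Those genes had been chosen with all 3 OA libraries on one side, so leaving out an OA library could hardly turn their sign. With the GC correction 2 other named genes changed sign, Vcam1 (0.44, against -0.66) and Tmem37 (-0.11, against 0.03). Counts of genes moved more. Against the midpoint edgeR called 0 genes, also whenever 1 library was left out, and 1 (Pitx1) with the GC correction, and DESeq2 called 15. The DESeq2 count, with settings chosen after seeing the data, was 24 with only the 9 libraries in the fit and 36 with the replicate block; it ranged from 9 to 179 when 1 library was left out, the most without OA3. For O against A DESeq2 called 420 genes and edgeR 0 to 4 with 1 library left out, for OA against O DESeq2 called 42, and for OA against A DESeq2 called 130 and edgeR 0 to 2. Genes outside both groups numbered 449 with no filter on low counts, 711 without OA2 and O1, and 221 to 1210 with 1 library left out. Axis genes like O made up 39.5% without OA2 and O1 and 18.5% to 33.3% with 1 library left out. Fewer libraries make separation of groups easier by construction; other causes were not tested. Of the 9 same-numbered pairs of libraries, the 3 pairs of pools deviated together (correlations 0.295 to 0.512), but the 6 pairs of clones ranged from -0.585 to 0.295, so the numbers were not taken as pairs; the replicate block left edgeR at 0 calls against the midpoint. Genes with few reads, such as Pitx1 in A, have differences that depend on the prior count.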
